A study of Mus musculus with 58 samples.

Results

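Collagen genes were followed over the day in retinas of diabetic mice and their controls. They were taken as all rows of the count table whose symbol is Col, a chain type number, the letter a and a chain number, which gave 44 of 52459 genes. Of these, 41 had a median above 4 normalized read counts over the 58 libraries and were tested, and Col10a1, Col14a1 and Col28a1 stayed at medians of 2.27, 3.97 and 3.83. The diabetic mice were males heterozygous for Ins2Akita, a mutation of the insulin 2 gene that makes misfolded insulin and leads to high blood sugar. The controls were male littermates without the mutation, from the same crosses to C57Bl6 females. All mice were kept in 12 h of light and 12 h of dark and were killed at 4 months of age at Zeitgeber time (ZT, hours after lights on) 1, 5, 9, 13, 17 or 21. Total RNA of single retinas, dissected after perfusion, was depleted of ribosomal RNA and sequenced. The control group held 30 libraries, with 5, 6, 5, 5, 5 and 4 at the successive time points, and the diabetic group held 28, with 5, 5, 5, 4, 4 and 5. Which retinas, if any, came from the same mouse is not in the labels, so p-values measure the spread between these libraries.

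Collagens are the triple-helical proteins of the extracellular matrix, and each gene makes a single chain of a homo- or heterotrimer. Fibrillar collagens form the fibrils of the vitreous and of vessel walls, fibril-associated collagens sit on the surface of those fibrils, and type IV collagens form the sheet of every basement membrane, including the inner limiting membrane and the capillary wall. Type VI makes beaded filaments, type VIII makes hexagonal networks, multiplexins end in fragments such as endostatin, and transmembrane collagens span the cell membrane. Thickening of the capillary basement membrane is a known lesion of the diabetic retina.

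The start regions of 5 collagen genes are printed here because their transcripts carried the results that follow. Col8a1 and Col8a2, the chains of type VIII, moved together over the day. Col4a2 shares its start with Col4a1 on the other strand, and Col4a4 starts beside Col4a3. Col5a3 had the smallest p-value between the genotypes. The windows run from 250 bases before to 50 after the RefSeq start on GRCm38.p6 and are written 5′ to 3′ on the strand of the gene. They lie at chr16:57754688-57754987 (minus strand) for Col8a1, chr4:126286544-126286843 (plus) for Col8a2, chr8:11312555-11312854 (plus) for Col4a2, chr1:82586800-82587099 (minus) for Col4a4 and chr9:20815018-20815317 (minus) for Col5a3. Capitals mark the GC box, GGGCGG, and the CCAAT box, CCAAT, on either strand, where neighbouring matches may overlap.
Col8a1: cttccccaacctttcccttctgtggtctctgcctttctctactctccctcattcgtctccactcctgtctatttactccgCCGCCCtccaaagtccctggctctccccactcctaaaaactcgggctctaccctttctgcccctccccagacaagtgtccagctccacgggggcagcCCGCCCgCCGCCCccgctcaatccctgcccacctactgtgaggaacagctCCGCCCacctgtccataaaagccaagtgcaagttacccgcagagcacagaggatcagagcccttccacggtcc
Col8a2: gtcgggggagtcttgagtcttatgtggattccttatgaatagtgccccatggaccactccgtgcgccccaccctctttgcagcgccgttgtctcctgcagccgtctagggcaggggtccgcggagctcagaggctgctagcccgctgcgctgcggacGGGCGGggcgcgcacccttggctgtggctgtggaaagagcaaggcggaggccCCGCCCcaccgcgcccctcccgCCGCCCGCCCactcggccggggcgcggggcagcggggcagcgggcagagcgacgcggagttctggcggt
Col4a2: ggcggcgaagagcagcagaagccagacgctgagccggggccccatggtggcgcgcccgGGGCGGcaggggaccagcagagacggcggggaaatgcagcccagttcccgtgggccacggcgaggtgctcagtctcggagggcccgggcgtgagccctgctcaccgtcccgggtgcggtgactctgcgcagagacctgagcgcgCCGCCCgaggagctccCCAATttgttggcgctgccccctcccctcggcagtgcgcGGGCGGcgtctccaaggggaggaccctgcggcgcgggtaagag
Col4a4: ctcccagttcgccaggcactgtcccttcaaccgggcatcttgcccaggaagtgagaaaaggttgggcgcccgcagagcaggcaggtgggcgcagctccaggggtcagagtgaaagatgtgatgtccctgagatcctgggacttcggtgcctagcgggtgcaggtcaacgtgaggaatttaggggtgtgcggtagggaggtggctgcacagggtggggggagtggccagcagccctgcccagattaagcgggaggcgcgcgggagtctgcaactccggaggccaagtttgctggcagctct
Col5a3: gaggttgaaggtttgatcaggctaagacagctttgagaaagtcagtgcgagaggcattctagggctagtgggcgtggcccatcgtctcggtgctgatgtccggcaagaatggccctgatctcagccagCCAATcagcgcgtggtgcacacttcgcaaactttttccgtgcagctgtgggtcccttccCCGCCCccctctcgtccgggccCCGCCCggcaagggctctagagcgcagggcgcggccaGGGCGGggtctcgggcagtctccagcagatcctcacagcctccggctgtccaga

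The Col8a1 window held 4 GC boxes and the Col8a2 window 3 that do not overlap, and neither held a CCAAT box. Windows of 35 collagen genes could be matched in RefSeq. A GC box was present in 22 of the 35, against 35.7% of all 32851 mouse windows of that length. The CCAAT box was present in 13 (37.4% of all windows), and the TATA box, TATAAA, in 5 (13.6%). The E-box CACGTG, the letters bound by the clock factors CLOCK and BMAL1, was in none of the 35 (7.15% of all windows). A match is a run of letters in this window and not a measured binding site.

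On GRCm38 (Gencode M21), the genes described most closely lie at chr9:20770050-20815067 (Col5a3, minus strand), chr15:71795795-72034227 (Col22a1, minus), chr2:180986535-181018363 (Col20a1, plus), chr16:57624258-57754737 (Col8a1, minus), chr4:126286793-126314330 (Col8a2, plus), chr1:24261890-24587472 (Col19a1, minus) and chr10:76708792-76726168 (Col6a1, minus).

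Each library held between 7773117 and 22147398 counted reads. Rod markers summed to 487197 to 745139 normalized counts per library and cone markers to 10459 to 13211, and none of the 5 blood markers passed the filter. In 3 control libraries (ZT1 replicate 6, ZT17 replicate 5 and ZT21 replicate 2), 10 lens markers summed to 45199, 29882.5 and 34554 normalized counts. The other 55 libraries had sums of 9.52 to 1086, and the lens membrane gene Lim2 was at 0 in all 58. Col6a3, Col4a1 and Col4a2 were the only collagens higher in those 3 libraries than in every other library. For collagens and the genes that make, process, bind or degrade them, values without these 3 libraries are given where a call ended or turned. Calls of the marker genes were not checked without these libraries. Because the samples are whole retinas, fewer cells of a type and less RNA per cell cannot be told apart.

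Per kilobase of transcript, Col23a1, a transmembrane collagen, was the most abundant chain, at 13.4 ± 1.247 RPKM (reads per kilobase of exon, scaled to library depth; SD, n = 58). Col6a1, a chain of type VI, followed at 10.4 ± 2.09 RPKM. Next came Col9a1, a chain of the fibril-associated type IX, at 8.18 ± 1.82 RPKM, and Col2a1, the main fibril chain of the vitreous, at 7.92 ± 1.24 RPKM. The spreads of Col9a1 and Col2a1 overlapped almost entirely. Col18a1, the source of endostatin, stood at 6.34 ± 2.16 RPKM, Col4a2 at 6.08 ± 1.11 RPKM, Col20a1 at 5.66 ± 0.936 RPKM and Col4a1 at 5.28 ± 2.05 RPKM, and these 4 could not be ordered beyond their spread. The fibril chains of skin and bone were low, with Col1a1 at 0.327 ± 0.205, Col1a2 at 0.357 ± 0.173 and Col3a1 at 0.0674 ± 0.035 RPKM. The lowest tested chain was Col6a5, at 0.0393 ± 0.0195 RPKM.

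By class, the 9 fibril-associated genes held 22.3% ± 1.79 of the summed collagen RPKM in a library, and the 6 type IV genes held 21.6% ± 3.06. The 11 fibrillar genes held 16.8% ± 1.66, the 4 transmembrane genes 14.6% ± 1.26 and the 6 type VI genes 11.6% ± 1.79. Multiplexins held 6.46% ± 1.71, the type VIII and X group 3.32% ± 1.71 and the anchoring fibril gene Col7a1 2.79% ± 0.381. Beside its mean, the type VIII and X group had the widest spread of these 8 classes.

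**Figure D1:**
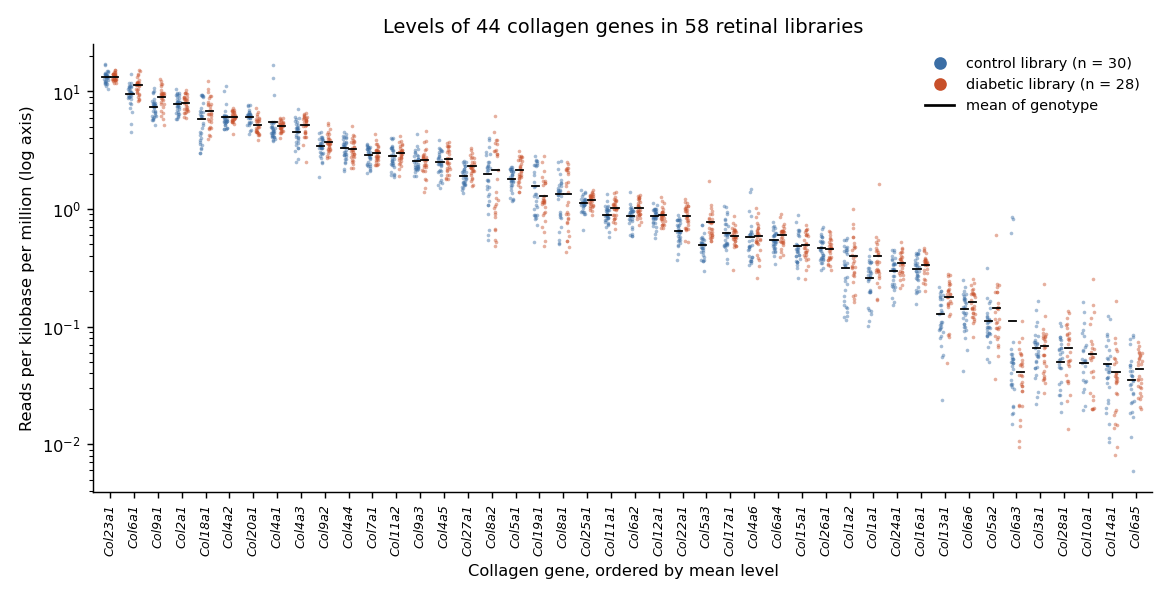
Level of the 44 collagen genes in RPKM on a log axis, with 1 point per library (30 control, 28 diabetic) and a line at the mean of each genotype; libraries at 0 cannot be drawn. Col23a1 lies highest, at a mean of 13.4 RPKM, and Col6a5 lowest, at 0.0393 RPKM.

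Over all time points, 11 of the 41 collagen genes differed between diabetic and control retinas, of which 9 were higher and 2 lower in diabetes. They were called at an adjusted p under 0.05 by edgeR's quasi-likelihood test, adjusted over all 19120 genes tested, of which 2.99% were called (1.58% higher and 1.41% lower). At an unadjusted p under 0.05, 15 of the 41 passed, against 15.5% of all genes. Fitted log2 folds were positive for 34 of the 41, against 50.6% of all genes, and their median was 0.117, against 0.0012 over all genes. The higher genes were 4 fibrillar chains (Col5a3, Col27a1, Col1a1, Col5a1), 2 fibril-associated chains (Col22a1, Col9a1), 2 type VI chains (Col6a1, Col6a2) and the transmembrane Col13a1. The lower ones were Col20a1 and Col6a3. None of the 6 type IV genes was called, with a median log2 fold of 0.01. Photoreceptor markers had the opposite sign, with 2 of 6 cone markers called lower (Pde6h and Gnat2; median log2 fold of the 6, -0.12) and 0 of 6 rod markers called (3 at an unadjusted p under 0.05; median -0.07). The rod sum had a mean of 618964 ± 57355 in control libraries and 577296 ± 48613 in diabetic ones. Of the other lists, 1 of 2 tested oligodendrocyte markers was called higher (Mbp, log2 fold 0.16), with sums of 638 ± 33.1 in control and 710.02 ± 153 in diabetic libraries. Lower were 1 of 7 microglia markers (Cx3cr1, -0.23), 1 of 8 pericyte and smooth muscle markers (Acta2, -0.37) and 3 of 5 tested lens markers. The median log2 fold of those 5 lens markers was -2.60, with the 3 control libraries of high lens sums included. The part of these cell types in the collagen differences was not tested. When the 3 libraries with lens markers were left out, 7 collagen genes were called. Without all libraries of ZT1 or without those of ZT17, 3 were called.

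**Figure D2:**
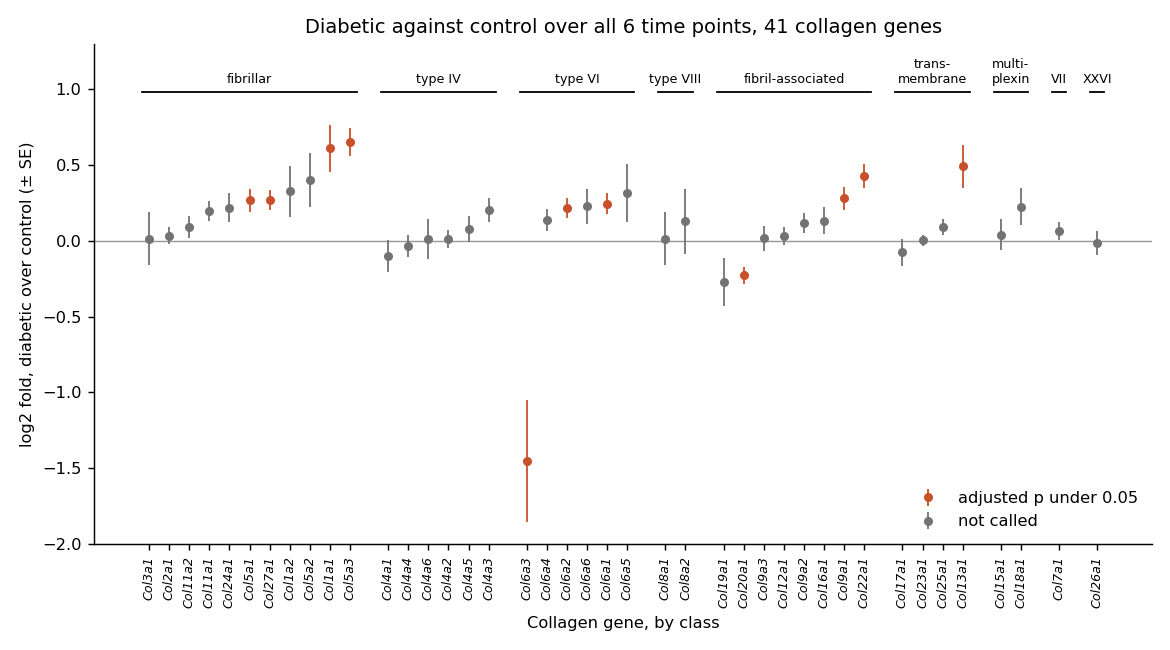
Fitted log2 fold of diabetic over control retinas (± SE) over all time points for the 41 tested collagen genes, grouped by class, with called genes in orange and the others in grey. Most points lie above 0, Col5a3 and Col1a1 are the highest called points at 0.65 and 0.61, and Col6a3 is the lowest at -1.45.

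Col5a3, a minor chain of type V that helps to set fibril width, had the smallest p-value. In control retinas its normalized count ranged from 29.0 to 72.1 with a median of 48.9, and in diabetic retinas from 52.4 to 171 with a median of 71.8. The lowest diabetic library was thus above the control median, although the ranges overlapped. The means were 48.2 ± 9.89 (SD, n = 30) and 75.6 ± 23.8 (n = 28), and the fitted log2 fold was 0.65 ± 0.09 (SE; adjusted p = 1.76e-06). At ZT1 the control libraries stood at 51.2, 53.9, 48.5, 43.0 and 35.9 and the diabetic ones at 80.0, 76.2, 55.2, 59.4 and 171. The groups did not overlap there, nor at ZT13, ZT17 and ZT21, while they did at ZT5 and ZT9. Leaving out any library kept the call, with log2 folds from 0.58 to 0.68.

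The other called fibrillar chains had smaller or less steady differences. Col27a1, a fibrillar collagen of cartilage and other tissues, ranged from 259.8 to 476 normalized counts in control (median 349.9) and from 295 to 621 in diabetic retinas (median 423). The ranges overlapped broadly, and its log2 fold was 0.27 ± 0.07 (adjusted p = 0.0139). Col5a1, the main chain of type V, ranged from 144 to 280.4 (median 223) in control and from 170.0 to 376 (median 259) in diabetic retinas. The log2 fold of Col5a1 was 0.27 ± 0.08 (adjusted p = 0.0368), and the call was lost when any of 13 of the 58 libraries was left out. Without the 3 lens libraries its log2 fold was 0.25, about as large, with an adjusted p of 0.065. Col1a1, a chain of type I, ranged from 9.61 to 43.5 (median 25.6) and from 16.1 to 154 (median 32.9). The value of 154 was the diabetic ZT13 replicate 5, and the other diabetic libraries of that time point stood between 22.3 and 33.6. With all libraries, the Col1a1 log2 fold was 0.61 ± 0.16 (adjusted p = 0.0181), and with any library left out it was 0.45 to 0.65 and kept its call. The call was lost without all libraries of ZT1 (adjusted p = 0.0679), ZT13 (0.0654), ZT17 (0.054) or ZT21 (0.0826). Col11a1, a chain of type XI in vitreous fibrils, had a log2 fold of 0.20 ± 0.07 and missed the threshold (adjusted p = 0.0817). Col2a1, the most abundant fibrillar chain, had a log2 fold of 0.03 ± 0.06 (adjusted p = 0.862).

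Among fibril-associated genes, Col22a1, known from tissue junctions, ranged from 48.9 to 118 normalized counts in control (median 86.1) and from 69.7 to 161 in diabetic retinas (median 116). The diabetic median lay near the highest control library. Its log2 fold was 0.43 ± 0.08 (adjusted p = 0.000424), and the mean was higher in diabetic retinas at all 6 time points. Col9a1 ranged from 379.7 to 785 (median 548) in control and from 379 to 927 (median 676) in diabetic retinas. Its lowest values were nearly the same in both genotypes, and the log2 fold was 0.28 ± 0.07 (adjusted p = 0.0193). Its partner chains Col9a2 and Col9a3 had log2 folds of 0.12 ± 0.07 (adjusted p = 0.416) and 0.02 ± 0.08 (adjusted p = 0.962).

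Col20a1, a fibril-associated collagen, went the other way, with 321 to 567 normalized counts in control (median 461) and 286 to 538 in diabetic retinas (median 370.2). The mean was lower in diabetic retinas at each of the 6 time points, although the groups overlapped. The log2 fold of Col20a1 was -0.23 ± 0.05 (adjusted p = 0.0109). An annotated gene on the same strand overlaps its exons by 79 bases, so a small part of its reads is uncertain.

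Type VI chains Col6a1 and Col6a2 were both higher. Col6a1 ranged from 285 to 889 (median 616) in control and from 528 to 958 (median 720.2) in diabetic retinas, with a log2 fold of 0.25 ± 0.07 (adjusted p = 0.0369). Col6a2 ranged from 70.9 to 167 (median 107) and from 87.4 to 159 (median 118), with a log2 fold of 0.22 ± 0.07 (adjusted p = 0.0492). Both calls sat near the threshold. That of Col6a1 was lost without any of 7 of the 58 libraries and that of Col6a2 without any of 39. Leaving out the 3 lens libraries kept the log2 folds near their size, at 0.23 for Col6a1 (adjusted p = 0.0713) and 0.21 for Col6a2 (adjusted p = 0.0897).

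Col6a3, the third chain of the common type VI trimer, was low in nearly every retina. It ranged from 0 to 147 in control (median 8.22) and from 1.64 to 19.2 in diabetic retinas (median 6.62). The 3 control libraries with lens markers stood at 142, 147 and 109, and all 55 others were at 19.2 or less. The log2 fold was -1.45 ± 0.40 with them (adjusted p = 0.0312) and 0.09 without them (adjusted p = 0.910). Leaving out any of the 3 alone also ended the call (adjusted p = 0.117 without control ZT1 replicate 6, 0.104 without control ZT17 replicate 5 and 0.0658 without control ZT21 replicate 2).

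The type IV chains of the basement membrane gave no call over all libraries. Col4a1 ranged from 408 to 1826 (median 498) in control and from 439.7 to 640.2 (median 549.6) in diabetic retinas. The 3 lens libraries held the highest control values, 1016 to 1826, and the 55 others reached 640.2. The Col4a1 log2 fold was -0.10 ± 0.11 with them (adjusted p = 0.738) and 0.15 without them, where it was called higher in diabetic retinas (adjusted p = 0.0287). Col4a2 stood at 747 to 1075 in the lens libraries and at 417 to 699 elsewhere, with a log2 fold of 0.01 ± 0.06 over all libraries. Col4a3, a chain of the network with Col4a4 and Col4a5, had the smallest p of its class, with a log2 fold of 0.21 ± 0.08 (adjusted p = 0.173). Exons of Col4a1 and Col4a2 overlap by 22 bases on opposite strands, and those of Col4a3 overlap another gene by 563 bases. Whether the counting used strand is not given in the sources used here.

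Of the 4 transmembrane genes, Col13a1, a collagen of cell adhesion sites, was called at low counts, 1.60 to 14.3 (median 7.92) in control and 3.28 to 18.6 (median 12.3) in diabetic retinas. At ZT1 the control values of 6.68, 7.03, 6.93, 5.61 and 5.34 did not overlap the diabetic values of 13.9, 9.69, 14.96, 16.1 and 10.1. Its log2 fold over all time points was 0.49 ± 0.14 (adjusted p = 0.0369), and 10 of the 58 left-out libraries ended the call. Without the 3 lens libraries it was 0.41 (adjusted p = 0.101). Col23a1, the most abundant collagen, had a log2 fold of 0.00 ± 0.04 and means of 1105 ± 124 and 1109 ± 80.9 normalized counts. Neither Col15a1 and Col18a1, the multiplexins, nor Col7a1 of anchoring fibrils was called.

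**Figure D3:**
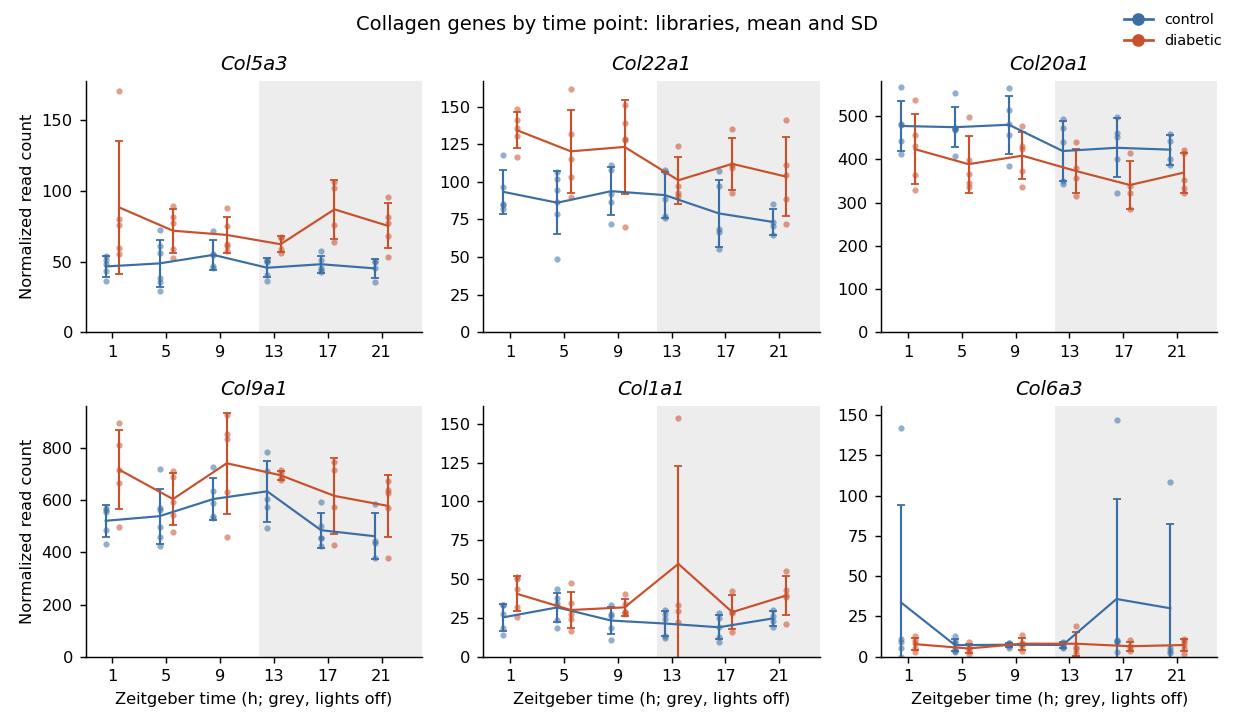
Normalized read counts of Col5a3, Col22a1, Col20a1, Col9a1, Col1a1 and Col6a3 against Zeitgeber time in hours, with 1 point per library, lines through the means of each genotype, bars of 1 SD, not drawn below 0, and the dark phase in grey. Col5a3 and Col22a1 have higher diabetic means at every time point, Col20a1 lower ones, and the 3 high Col6a3 points of 109 to 147 are the control libraries with lens markers.

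At single time points no collagen gene was called between the genotypes by edgeR. Over all genes, the called share was 0.0105% at ZT1, 0.0209% at ZT5 and 0.00523% at ZT9, then 0.167% at ZT17, with 0% at both ZT13 and ZT21. An unadjusted p under 0.05 was reached by 12 of the 41 at both ZT1 (5.5% of all genes) and ZT17 (8.82%). It was reached by 7 at both ZT5 (6.15%) and ZT21 (4.67%), by 6 in the ZT13 libraries (4.46%) and by 2 in the ZT9 libraries (4.49%). DESeq2 in place of edgeR called 2 collagen genes at ZT17, Col6a1 among them (adjusted p = 0.039), and none at the other time points. The shares above are those of edgeR, and the DESeq2 share over all genes is not given here. Positive log2 folds were found for 31, 22, 28, 36, 27 and 30 of the 41 at the successive time points, and their share among all genes stayed between 48.8% and 52.6%.

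The smallest p at a time point belonged to Col5a3 at ZT1, with a log2 fold of 0.94 ± 0.22 (adjusted p = 0.168). Without the diabetic replicate 5, the highest library, it was 0.54. At ZT17, Col6a1 stood at 456, 285, 578, 580.3 and 496 normalized counts in control and at 573, 721, 937 and 635 in diabetic retinas. Only the lowest diabetic library lay within the control range, and the log2 fold was 0.58 ± 0.15 (adjusted p = 0.0867). Col5a3 followed at ZT17, with 0.85 ± 0.22 (adjusted p = 0.0882). Col24a1, a minor fibrillar chain, led at ZT21, at 27.7, 25.2, 16.9 and 17.8 in control and 36.8, 31.5, 28.1, 41.4 and 43.9 in diabetic retinas. Those groups did not overlap, and its log2 fold was 0.76 ± 0.21 (adjusted p = 0.350). At ZT9 and ZT13 the leading values rested on single libraries. Col5a2, a chain of type V, had a log2 fold of 1.24 at ZT9 that became 0.40 without the diabetic replicate 5, and Col1a1 had 1.42 at ZT13 that became 0.36 without the diabetic replicate 5.

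A daily rhythm, tested as a cosine of 24 h with edgeR, was called for 13 of the 41 collagen genes in control retinas (12.2% of all genes) and for 7 of the 41 in diabetic retinas (14.3%). At an unadjusted p under 0.05 these counts were 21 (26.4% of all genes) and 12 (26.9%). In control retinas 9 of the 13 peaked in the light, where the background was 6.27%, and 4 in the dark (5.95%). In diabetic retinas 4 of the 7 peaked in the light (7.33%) and 3 in the dark (6.98%). A rank test of waveforms, at an unadjusted p under 0.05 and a set minimum ratio of the highest to the lowest library, called 15 of the 41 in control (21.8% of all genes) and 14 in diabetic retinas (23.9%). Col19a1, Col8a1, Col8a2, Col4a4 and Col6a4 were called by edgeR in both genotypes. Peak-to-trough sizes and acrophases, the times of the fitted peak, are given below from least squares on log2 counts scaled to library size, with their SE. Sizes compared between settings are those of the edgeR fit itself and are named so.

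Col19a1, a fibril-associated collagen of neurons and muscle, had the smallest p in control retinas. Its control libraries ranged from 152 to 259.7 normalized counts at ZT5 (median 232) and stood at 284, 236, 255, 205 and 157 at ZT13. By ZT17 they were at 87.3, 89.7, 52.4, 88.7 and 84.1, below every control library of ZT5, ZT9 and ZT13. In diabetic retinas the 5 libraries at ZT5 lay between 114 and 172, the 4 at ZT13 between 124 and 251, and the 4 at ZT17 between 48.6 and 119. The peak-to-trough size of Col19a1 was 1.41 ± 0.25 on the log2 scale in control (adjusted p = 4.08e-05) and 1.12 ± 0.24 in diabetic retinas (adjusted p = 0.000983). Its acrophases were ZT8.69 ± 0.64 and ZT8.41 ± 0.86. Both calls held without any single library and under the other settings tried. Across all libraries, with group means removed, Col19a1 correlated with the pericyte and smooth muscle markers (r = 0.422, rho = 0.456, adjusted permutation p = 0.00963). The part of those cells in its rhythm was not tested.

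The type VIII chains Col8a1 and Col8a2, known from the endothelium of the cornea and from the basal side of pigment epithelium, were lowest at ZT1 and ZT5 in both genotypes. Col8a2 means in control retinas were 67.9 ± 31.5, 85.8 ± 37.4, 131 ± 15.9, 143 ± 59.1, 158 ± 41.6 and 211 ± 53.7 normalized counts from ZT1 to ZT21 (SD, n = 4 to 6). In diabetic retinas they were 62.1 ± 17.1, 41.8 ± 9.27, 118 ± 59.7, 266 ± 94.0, 137 ± 60.0 and 242 ± 38.5. All diabetic libraries at ZT13 (192 to 404) and ZT21 (203 to 294) lay above those at ZT1 and ZT5. The Col8a2 rhythm had a peak-to-trough size of 1.18 ± 0.31 in control (adjusted p = 0.0349) and 2.27 ± 0.39 in diabetic retinas (adjusted p = 2.02e-05). Its acrophases were ZT16.0 ± 1.07 and ZT16.2 ± 0.64. Col8a1 had sizes of 0.98 ± 0.27 (adjusted p = 0.0349) and 1.61 ± 0.32 (adjusted p = 0.000191), with acrophases of ZT15.7 ± 1.12 and ZT16.1 ± 0.74. In control retinas each of these calls was lost without any of 9 of the 58 libraries, and without the 3 lens libraries (adjusted p = 0.0508 for Col8a2 and 0.0652 for Col8a1). The edgeR sizes stayed alike there, at 1.16 without and 1.14 with those libraries for Col8a2 and at 0.93 and 0.96 for Col8a1. No single left-out library ended either call in diabetic retinas. Without all libraries of ZT5 the diabetic Col8a1 call was lost (adjusted p = 0.0682), and its edgeR size went from 1.70 to 1.27. At ZT5, Col8a2 stood at 35.6 to 149 in 6 control retinas (median 81.7) and at 42.6, 35.3, 55.7, 31.6 and 43.96 in diabetic retinas. The groups overlapped through the lowest control library, and the log2 fold was -1.06 ± 0.33 (adjusted p = 0.399).

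Markers of pigment epithelium and melanocytes varied with these chains. The summed counts of the 10 markers ranged from 472 to 4858 in control (median 2330.2) and from 414 to 5614 in diabetic retinas (median 1689), and 9 of the 10 passed the filter. Rgr, Ttr and Rpe65 made up 36.3%, 29.8% and 14.5% of the sum, and no marker of the list was at 0 in every library. At ZT5 the sum was 698 to 2319 in control and 414 to 579.99 in diabetic retinas, without overlap. A rhythm was called for 4 of the 9 tested markers in control (12.2% of all genes) and for 5 in diabetic retinas (14.3%). Across the 58 libraries, with group means removed, Col8a2 correlated with the sum (Pearson's r = 0.856, Spearman's rho = 0.854), as did Col8a1 (r = 0.772, rho = 0.771). The adjusted permutation p was 0.000234 for both r values over 328 relations of collagens with marker lists, with a raw p of 1e-05, the smallest that 100000 permutations can give. Without the 2 libraries farthest from the median sum, r was 0.850 for Col8a2 and 0.722 for Col8a1. Col8a2 and Col8a1 also correlated with the meningeal and optic nerve sheath markers (r = 0.682 and 0.586) and with the pericyte and smooth muscle markers (r = 0.375 and 0.426), and Col8a2 with the astrocyte markers (r = 0.379), all at an adjusted p under 0.05. Ptgds alone made up 88.9% of the meningeal and optic nerve sheath sum, and 3 of the 5 markers of that list passed the filter. With the log2 pigment epithelium sum as a term of the model, neither rhythm was called (adjusted p = 0.801 for Col8a1 and 0.699 for Col8a2 in control, 0.853 and 0.774 in diabetic libraries). The edgeR size went from 0.96 to 0.15 for Col8a1 and from 1.14 to 0.18 for Col8a2 in control, and from 1.70 to 0.13 and from 2.38 to 0.21 in diabetic libraries. The ZT5 log2 fold of Col8a2 became 0.26 in that fit. For other genes the term ended a call while most of the size was kept. The edgeR rhythm size of Col11a1 in control went from 0.43 to 0.41 (adjusted p = 0.0648), that of Col12a1 from 0.38 to 0.33 (0.102), and that of Col6a4 in diabetic libraries from 0.47 to 0.37 (0.222). The genotype log2 fold of Col13a1 went from 0.49 to 0.45 (0.0557), that of Col5a1 from 0.27 to 0.24 (0.0589) and that of Col6a2 from 0.22 to 0.19 (0.0879). The pigment epithelium sum itself varied over the day, so that fit cannot tell the time of day from the amount of such cells. Their part in the result was not tested.

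**Figure D4:**
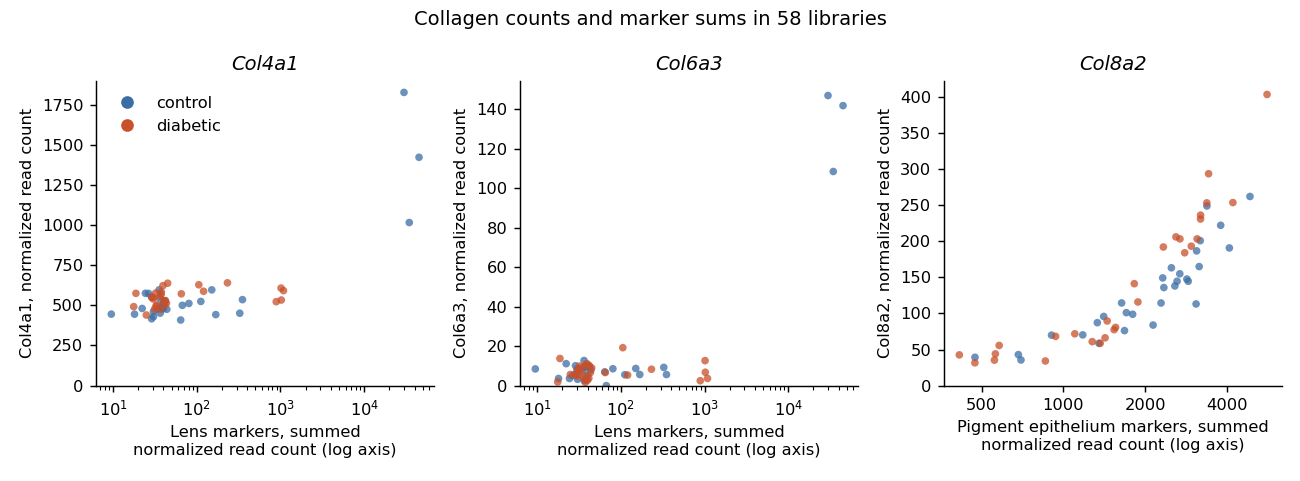
Normalized read counts of Col4a1 and Col6a3 against the summed lens markers, and of Col8a2 against the summed pigment epithelium markers, each on a log horizontal axis, with 1 point per library. The 3 control libraries with lens sums of 29882.5 to 45199 stand apart from all others in Col4a1 and Col6a3, and Col8a2 goes up with the pigment epithelium sum in both genotypes.

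Col4a4, a chain of the mature type IV network, peaked around the end of the light phase. Its control means went from 407 ± 52.0 normalized counts at ZT1 to 639 ± 34.8 at ZT13, where all 5 libraries (608 to 698) were above all 5 at ZT1 (336 to 470.1). In diabetic retinas the corresponding means were 438 ± 74.2 and 639 ± 101, and the libraries did not overlap there either. The peak-to-trough size was 0.51 ± 0.12 in control (adjusted p = 0.00476) and 0.54 ± 0.12 in diabetic retinas (adjusted p = 0.00263). Acrophases of Col4a4 were ZT13.0 ± 0.91 and ZT11.9 ± 0.87. The control call was lost without all libraries of ZT1 (adjusted p = 0.105) or ZT13 (0.182), where the edgeR size went from 0.50 to 0.43 and 0.38. The diabetic call was lost without those of ZT13 (adjusted p = 0.102), where the edgeR size went from 0.53 to 0.41.

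A group of control genes peaked around the middle of the day. Col6a1 had control means of 667 ± 36.7, 686 ± 105, 660.3 ± 97.3, 599.8 ± 63.4, 479 ± 121 and 478 ± 121 normalized counts from ZT1 to ZT21, and the dark-phase libraries at ZT17 and ZT21 (285 to 584) lay below all those of ZT1 and ZT5 (613 to 889). Its peak-to-trough size was 0.60 ± 0.14, with the acrophase at ZT6.19 ± 0.87 (adjusted p = 0.0023). Col24a1 peaked at ZT6.05 ± 0.83 (adjusted p = 0.00331), and the type XI chains Col11a2 and Col11a1 at ZT5.70 ± 0.94 (adjusted p = 0.00409) and ZT5.92 ± 0.98 (adjusted p = 0.0258). Col12a1, a fibril-associated chain, Col6a6 of type VI and Col25a1, a transmembrane collagen found in amyloid plaques, peaked between ZT5.26 and ZT6.69 (adjusted p = 0.0166 to 0.031). The Col11a1 call was lost without the 3 lens libraries (adjusted p = 0.0535), where its edgeR size was 0.42 against 0.43 with them, and without any of 3 single libraries. Those of Col12a1 and Col6a6 were each lost without any of 4 libraries and that of Col25a1 without 1. Col12a1 (r = -0.527), Col25a1 (r = -0.404) and Col11a1 (r = -0.401) were lower in libraries with more Muller glia markers, and Col12a1 (r = -0.403) and Col11a1 (r = -0.394) in those with more endothelium markers. Kdr and Flt1 made up 51.7% and 37.0% of the endothelium sum. Without the 2 libraries farthest from the median endothelium sum, r was -0.364 for Col12a1 and -0.275 for Col11a1. In control retinas the Muller glia sum was lowest at ZT5 (45208 ± 2096) and highest at ZT17 (54582 ± 2789). Of its 8 markers, 3 were called rhythmic there (12.2% of all genes), and the part of these cells in the collagen rhythms was not tested. Of the 7 collagen genes in the group, edgeR called none in diabetic retinas, where Col6a1 had a peak-to-trough size of 0.24 ± 0.12 and Col24a1 of 0.41 ± 0.16. The rank test called 1 of the 7 there, Col6a1 (unadjusted p = 0.0386). The difference in rhythm between the genotypes did not pass for any of them. Without all libraries of ZT5, 5 collagen genes were rhythmic in control retinas, and without those of ZT17, 7 were.

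Col6a4, a type VI chain, was called in both genotypes with fitted peaks at different hours. Control means were 70.9 ± 6.09, 73.4 ± 14.1, 77.0 ± 8.83, 68.5 ± 12.2, 57.2 ± 9.41 and 53.6 ± 3.48, and diabetic means were 88.9 ± 10.5, 82.3 ± 17.2, 69.2 ± 13.0, 62.6 ± 8.86, 68.8 ± 13.2 and 68.8 ± 10.7. The size was 0.48 ± 0.11 in control (adjusted p = 0.009) and 0.45 ± 0.13 in diabetic retinas (adjusted p = 0.0195). Acrophases were ZT7.08 ± 0.84 and ZT2.39 ± 1.07. The difference between the genotypes had an unadjusted p of 0.0124 and an adjusted p of 1.00. Exons of other annotated genes on the other strand overlap those of Col6a4 by 289 bases. Col6a3 was called in control retinas only with the lens libraries (adjusted p = 0.0122 with them, 0.659 without).

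Col9a3 and Col5a2 were called in diabetic retinas alone, near the threshold (adjusted p = 0.0467 and 0.0498). Col9a3 diabetic means ran from 104 ± 24.2 normalized counts at ZT5 to 188 ± 55.9 at ZT13, with an acrophase of ZT16.2 ± 1.32, and 17 of 58 left-out libraries ended the call. With the pigment epithelium sum as a term the Col9a3 rhythm was not called (adjusted p = 0.962), and its edgeR size went from 0.53 to 0.07. Col9a3 also correlated with the ciliary body and iris markers (r = 0.440, rho = 0.457, adjusted p = 0.00607), the meningeal markers (r = 0.433, rho = 0.423, adjusted p = 0.0069) and the fibroblast markers (r = 0.396, rho = 0.408, adjusted p = 0.0177), and their part in its rhythm was not tested. Col5a2 stood at 15.9, 5.00, 27.7, 22.0 and 83.5 in the diabetic libraries of ZT9. Without the library at 83.5, diabetic ZT9 replicate 5, its adjusted p was 0.361, and 42 of 58 left-out libraries ended the call. Leaving out the 3 lens libraries, which are all control, left its edgeR size at 1.05 and gave an adjusted p of 0.0545. A difference between genotypes in rhythm was called for 0 of the 41 collagen genes and 0% of all genes by edgeR, and DESeq2 called none of the 41. At an unadjusted p under 0.05, 1 of the 41 passed in edgeR, Col6a4, against 3.44% of all genes in that fit. Col6a3 and Col8a2 followed there, each at an unadjusted p of 0.0522. In DESeq2, 3 of the 41 passed, and the DESeq2 share over all genes is not given here. The edgeR size of the difference went from 2.87 to 0.56 for Col6a3 without the lens libraries and from 1.249 to 0.225 for Col8a2 with the pigment epithelium sum as a term.

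**Figure D5:**
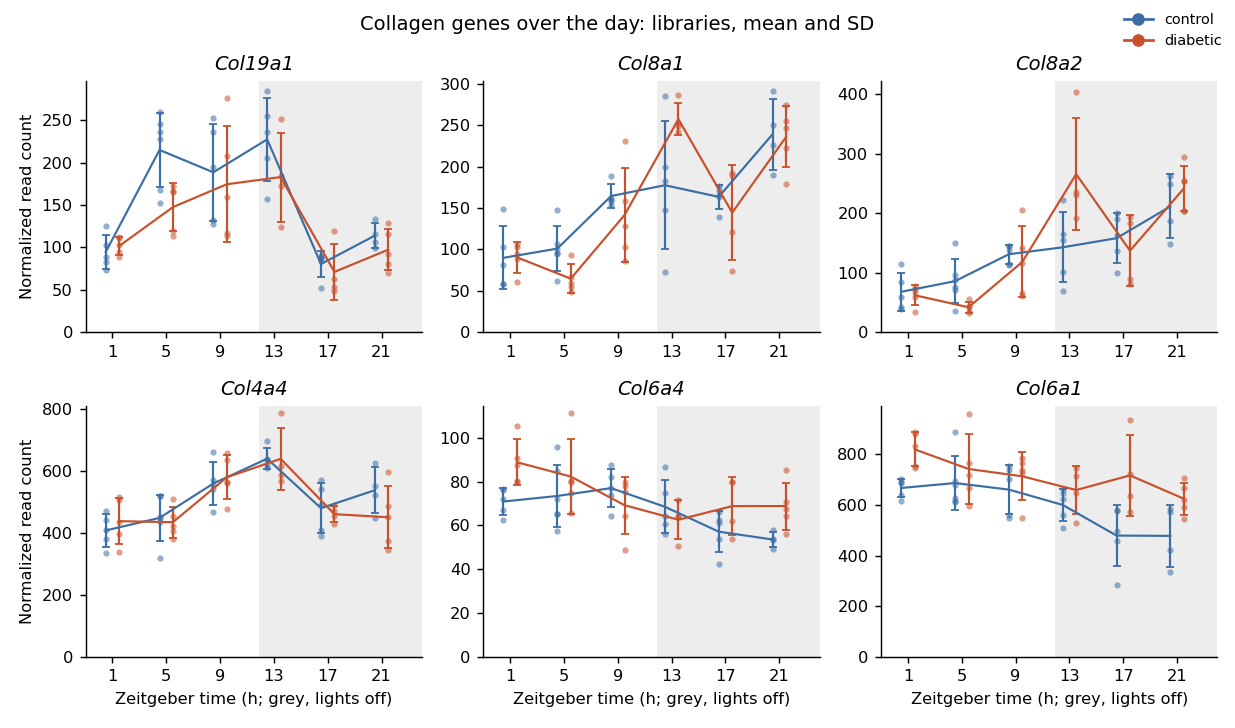
Normalized read counts of Col19a1, Col8a1, Col8a2, Col4a4, Col6a4 and Col6a1 against Zeitgeber time in hours, with 1 point per library, lines through the means of each genotype, bars of 1 SD and the dark phase in grey. Col19a1 is highest from ZT5 to ZT13, Col8a1 and Col8a2 are lowest at ZT1 and ZT5, and control Col6a1 is lowest at ZT17 and ZT21.

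Chains that share a trimer or a start region were compared across the 58 libraries, with the means of each genotype and time point removed, in 11 pairs. The permutation p, adjusted over the pairs, was under 0.05 for 8 of the 11. It tests against no correlation. Other gene pairs were not compared, so how these r values stand beside those of unrelated genes is not known. Col4a1 and Col4a2, whose annotated starts lie 21 bp apart on opposite strands, had r = 0.871 (rho = 0.780, adjusted p = 2.2e-05), and r = 0.651 without the lens libraries. The pair Col4a3 and Col4a4, with starts 72 bp apart, had r = 0.611 (rho = 0.512), and Col4a5 and Col4a6, 1309 bp apart on the X chromosome, r = 0.536 (rho = 0.494). Col8a1 and Col8a2 lie on chromosomes 16 and 4, and their r was 0.874 (rho = 0.852). Col6a1 and Col6a2, which sit 102538 bp apart on chromosome 10, had r = 0.579 (rho = 0.563). The type IX pairs had r = 0.605 for Col9a1 with Col9a2 and 0.500 for Col9a2 with Col9a3, and the type XI pair 0.509. The pairs that did not pass were Col1a1 with Col1a2 (r = 0.146, adjusted p = 0.299), Col5a1 with Col5a2 (r = -0.198, adjusted p = 0.166) and Col6a2 with Col6a3 (r = 0.0315, adjusted p = 0.815). Without the 2 libraries farthest from the median of the gene named first, the 8 pairs had r of 0.42 to 0.87.

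Other collagens moved with markers of tissue around the retina. Col18a1 correlated with the 6 ciliary body and iris markers (r = 0.950, rho = 0.960) and with the 10 markers of scleral and choroidal fibroblasts (r = 0.937, rho = 0.941). Col1a2 did so as well, with r = 0.852 (rho = 0.856) and 0.832 (rho = 0.847), all at the adjusted p of 0.000234. The ciliary body and iris sum ranged from 100.5 to 659.8 in control and from 164 to 744 in diabetic libraries. The fibroblast sum ranged from 559 to 2109.8 and from 756 to 1845. Prelp, Fbln1, Pdgfra and Fmod made up 49.9%, 22.7%, 12.0% and 11.3% of the fibroblast sum, and 6 of its 10 genes passed the filter. Dcn had a mean of 10.6 normalized counts, and Lum and Dpt were at 0 in 29 and 52 libraries. Col18a1 and Col1a2 also correlated with the meningeal (r = 0.676 and 0.649) and astrocyte markers (r = 0.434 and 0.490), all at an adjusted p under 0.05. Of the genes called between the genotypes, Col20a1 was lower in libraries with more pericyte and smooth muscle (r = -0.555), Muller glia (r = -0.543) and endothelium markers (r = -0.463). Col6a2 was higher with Muller glia markers (r = 0.404, adjusted p = 0.0157) and Col1a1 with the 4 astrocyte markers (r = 0.361, adjusted p = 0.0431). The astrocyte sum was 347 ± 50.1 in control and 391 ± 83.1 in diabetic libraries. For the others (Col5a3, Col22a1, Col27a1, Col9a1, Col5a1, Col6a1, Col13a1 and Col6a3), no relation passed with any of the 8 marker lists correlated. These lists were pigment epithelium, fibroblast, ciliary body and iris, meningeal, endothelium, pericyte, Muller glia and astrocyte. Their part in the differences between genotypes was not tested.

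The genes that make, process, bind or degrade collagen were read in the same fits. Of 20 genes of basement membrane partners, 5 were called between the genotypes over all time points, against 2.99% of all genes. Lamc1 and Lama5, laminin chains, had log2 folds of 0.12 ± 0.03 (adjusted p = 0.0109) and 0.18 ± 0.05 (adjusted p = 0.0145), Agrn, the heparan sulfate proteoglycan agrin, 0.11 ± 0.03 (adjusted p = 0.041), and Sparc, a collagen-binding matricellular protein, 0.14 ± 0.04 (adjusted p = 0.0448). Nid1, which links laminin and type IV collagen, had -0.90 ± 0.26 (adjusted p = 0.0367) with the lens libraries and 0.00 ± 0.08 without them (adjusted p = 0.993). Without those libraries Lamc1, Lama5 and Sparc were called and Agrn, at 0.09 ± 0.03, was not (adjusted p = 0.114). None was called among the tested genes of the other lists, which were 20 of collagen synthesis and secretion, 12 of maturation and cross-linking, 11 receptors, 10 of degradation and 15 of fibrosis and TGF beta signals, of which 6, 2, 1, 1 and 0 had an unadjusted p under 0.05, against 15.5% of all genes.

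Rhythms were called in 3 of the 20 synthesis genes in each genotype, against 12.2% of all genes in control and 14.3% in diabetic retinas, the shares to set beside each list here. P4ha1, a prolyl hydroxylase subunit, and Serpinh1, the collagen chaperone HSP47, were called in both (adjusted p = 1.13e-06 and 0.000903 in control, 0.000442 and 0.00339 in diabetic retinas). Of the 12 maturation genes, control retinas gave 1 call and diabetic retinas 6, with Adamts3, a procollagen protease, in both (adjusted p = 0.0152 and 0.00266). The lysyl oxidases Loxl1, Loxl2 and Loxl4 and the proteinase enhancers Pcolce and Pcolce2 were called in diabetic retinas only (adjusted p = 0.0058 to 0.0422). Among 10 degradation genes, control retinas gave 3 calls and diabetic retinas 4, including Mmp14, a membrane-bound collagenase (adjusted p = 1.7e-05 and 0.00066), and Timp3, an inhibitor held in the basement membrane of pigment epithelium (adjusted p = 0.00462 and 5.77e-07). The 11 receptors gave 1 and 0 calls, the 20 basement membrane partners 2 and 3, and the 15 TGF beta signals 1 and 2. Without the 3 lens libraries, control calls of the basement membrane partners went from 2 to 0 (adjusted p = 0.150 for Lamb1 and 0.456 for Nid1) and those of degradation from 3 to 2 (Timp2, adjusted p = 0.0542), while those of TGF beta signals went from 1 to 2 (Fn1, adjusted p = 0.0431). In none of the 6 lists was a difference in rhythm between the genotypes called by edgeR, and at an unadjusted p under 0.05 it was reached by 1, 1, 0, 1, 3 and 1 genes in the order synthesis, maturation, receptors, degradation, basement membrane and TGF beta.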

How the data were processed

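Per the submitters' processing notes and the study's methods, the authors checked reads with FastQC, aligned them with STAR 2.7.4a to GRCm38, counted reads per gene with HTSeq 0.11.1 and used DESeq2 1.26.0. They deposited raw counts per gene, and each of the 58 columns was matched to a sample by its name. Whether counting used strand is not given in the sources used here.

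Genes with a median above 4 counts, normalized by DESeq2 size factors, were tested (19120). Genotypes were compared over all time points, at each time point and as the difference in a 24 h cosine with edgeR 4.0.16, using TMM scaling and the quasi-likelihood test, with Benjamini-Hochberg adjustment over all genes tested. A gene was called at an adjusted p under 0.05. DESeq2 1.42.0, other scalings and filters, a replicate block, a rank test of waveforms and leaving out each library or time point were alternatives. The fits without the lens libraries and with the pigment epithelium sum, and the marker correlations, were added after the data were seen. RPKM was computed with exon lengths from Gencode M21, and promoters came from RefSeq. The edgeR fits were also run on simulated counts with known changes, and that outcome is not given here. The members and gene lists were chosen with earlier results of these data known. Collagen genes described by library are those called, the 8 of highest mean RPKM, those of smallest p in each comparison, and Col8a2. Col1a2, Col3a1, Col6a5, Col9a2, Col7a1, Col15a1 and the members of the pairs were added as context after their values were seen. Of the other lists, genes called are named.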

Additional observations from a re-analysis of the deposited data

Results flagged for a closer look

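In groups of 4 to 6 libraries, 29 collagen genes gave 348 groups, and in 24 of them (6.9%) the highest or lowest library stood apart from the rest by Dixon's test. Chance gives about 1 in 20. The flags fell on 15 libraries, and 9 of the 24 were Col4a1, Col4a2 and Col6a3 in the 3 control libraries with lens markers. All values are normalized counts, with the range of the other libraries of that group.

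In control ZT1 replicate 6, Col4a1 stood at 1422 (others 481 to 535), Col4a2 at 979 (525.5 to 579.7) and Col6a3 at 142 (0 to 11.1). In control ZT17 replicate 5, Col4a1 stood at 1826 (429.8 to 529), Col4a2 at 1075 (460.3 to 595) and Col6a3 at 147 (3.20 to 10.2). In control ZT21 replicate 2, Col4a1 stood at 1016 (442 to 451), Col4a2 at 747 (517 to 540.02) and Col6a3 at 109 (2.55 to 5.62). The part of lens material in these values was not tested.

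Among genes called between the genotypes, Col5a3 stood at 171 in diabetic ZT1 replicate 5 (55.2 to 80.0) and Col1a1 at 154 in diabetic ZT13 replicate 5 (22.3 to 33.6). Col13a1 stood at 15.4 in diabetic ZT17 replicate 4 (10.5 to 10.97). Col22a1 was low in diabetic ZT9 replicate 3, at 69.7 (128 to 151), and so was Col6a1 in the same library, at 549 (725 to 786). Col6a1 stood at 889 in control ZT5 replicate 5 (613 to 696).

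Among rhythmic genes, Col19a1 stood at 52.4 in control ZT17 replicate 3 (84.1 to 89.7) and Col8a1 at 189 in control ZT9 replicate 5 (153 to 162). Col12a1 stood at 279 in diabetic ZT13 replicate 5 (195 to 207), Col9a3 at 243 in control ZT21 replicate 1 (116 to 136) and Col6a6 at 32.7 in control ZT5 replicate 3 (17.3 to 22.4). Col5a2 stood at 43.6 in control ZT5 replicate 3 (13.5 to 20.1) and at 83.5 in diabetic ZT9 replicate 5 (5.00 to 27.7). Col4a2, which was not called rhythmic in either genotype, stood at 504 in diabetic ZT1 replicate 2 (618 to 643) and at 577 in diabetic ZT13 replicate 4 (522 to 525).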

How the results depend on the processing

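Between the genotypes over all time points, 11 collagen genes were called, against 6 with no filter on low counts, 7 with the replicate block and 7 without the 3 lens libraries. Leaving out a time point gave 3 (without ZT1), 7 (without ZT5), 6 (without ZT13), 3 (without ZT17) and 5 (without ZT21). Leaving out a library gave 6 to 12, with 6 without control ZT21 replicate 2 or control ZT17 replicate 5 and 7 without diabetic ZT17 replicate 4 or diabetic ZT5 replicate 5. Col5a3 and Col22a1 were called under all 14 other settings and without each of the 58 libraries. At single time points the count of 0 became 2 with DESeq2, and 0 to 2 without a library, with 2 without diabetic ZT17 replicate 1. Rhythms in control retinas (13) became 8 with the 6 time points as groups, 5 without ZT5, 7 without ZT17, 21 at an unadjusted p, and 9 to 14 without a library. Rhythms in diabetic retinas (7) became 4 with the pigment epithelium sum as a term, 4 without ZT5, 3 without ZT13, 12 at an unadjusted p, 14 with the rank test, and 5 to 7 without a library. The difference in rhythm gave 0 at an adjusted p under 0.05 in the 14 other settings and without each library.

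The log2 fold of Col6a3 over all time points became 0.087 without the lens libraries. That of Col4a1 became 0.15 without them and ranged from -0.116 to 0.0097 without a library, the highest without control ZT17 replicate 5. The ZT5 fold of Col8a2 became 0.26 with the pigment epithelium sum as a term. The cause of the other changes was not tested.

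Whether the replicate numbers pair the samples is not in the labels, and pairs with different numbers were not compared. Over 26 pairs with the same number, deviations from the group means had r of -0.219 to 0.579 (median 0.126), over 0.1 in 15. With the replicate block the counts were 7 over all time points, 0 at single time points, 14 in control rhythm, 6 in diabetic rhythm and 0 for the difference. The block ended the genotype calls of Col13a1 (adjusted p = 0.0547), Col6a1 (0.0521), Col6a2 (0.0529) and Col6a3 (0.193) and the rhythm calls of Col8a1 in control (0.0588) and Col5a2 in diabetic retinas (0.0653).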
